A study of Mus musculus with 12 samples.

Results

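The difference between the hypoxia response of AXL KO cells and that of AXL WT cells was measured in all 12 of the 12 libraries of the series, 3 in each of 4 groups. The quantity described is the log2 fold change from 21% to 1% oxygen in AXL KO minus the same change in AXL WT, called the interaction here. A positive interaction, written "higher", means that the KO value for hypoxia against normoxia lay above the WT value, and a negative one, written "lower", that it lay below. MMTV-NIC cells are mouse breast cancer cells, in which the mammary tumour virus promoter drives an activated Neu (ErbB2) oncogene together with Cre recombinase, and all 4 groups share that background. The groups are NIC WT cells in 21% oxygen (AXL WT normoxia), NIC WT cells in 1% oxygen (AXL WT hypoxia), NIC AXL KO cells in 21% oxygen (AXL KO normoxia) and NIC AXL KO cells in 1% oxygen (AXL KO hypoxia). How Axl was disrupted, whether the KO cells are 1 clone, and how long the cells were kept in 1% oxygen are not given in the sources used here. Whether replicates are separate cultures is not given either, so the p-values reflect the spread among these particular libraries, and that spread may be technical. These are bulk samples, in which fewer cells of a type and less RNA per cell cannot be told apart.

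TYRO3, AXL and MERTK form the TAM family of receptor tyrosine kinases, whose ligands are GAS6 and protein S. When oxygen is low, the hypoxia-inducible factors HIF-1 and HIF-2 escape hydroxylation and degradation and raise glycolytic enzymes, angiogenic factors and collagen-modifying enzymes. Lack of oxygen also slows the cell cycle in many cells, and it touches protein folding in the endoplasmic reticulum and signalling through NF-kappaB. An interaction asks whether these changes have the same size in cells with and without AXL.

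Levels are given for replicates 1 to 3 as CPM, the count scaled to 1 common library size, and fold changes on the log2 scale ± their standard error. Axl itself (ENSMUSG00000002602) was at 911, 892 and 1000.2 CPM in AXL WT normoxia and 509.6, 455 and 592 CPM in AXL WT hypoxia. In AXL KO, Axl stood at 2.93, 3.26 and 3.47 CPM in normoxia and 2.09, 2.35 and 1.72 CPM in hypoxia. Every KO library lay far below every WT library, as the titles say. Axl fell in hypoxia in both genotypes, and the relative fall did not differ beyond the error (0.20 ± 0.19, adjusted p = 0.463, edgeR quasi-likelihood test). The 3 AXL WT hypoxia libraries were far less alike than those of the other groups, with a biological coefficient of variation of 0.4 against 0.0585 to 0.0895. Replicate 1 stood apart from replicates 2 and 3 most. The deepest library held 58775422 counts in genes and the shallowest 45297267.

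Hypoxia moved many genes in both genotypes, and for many of them the size or the direction of the change differed between the genotypes. Of 16767 genes tested, 4830 were called in the interaction by edgeR at an adjusted p under 0.05 (28.8%), 2264 of them higher (13.5%) and 2566 lower (15.3%). limma-voom with a quality weight per group, which allows for the uneven group, called 4842 (28.9%), and 3987 were called by both (23.8%). Within AXL KO 58% of genes were called in hypoxia against normoxia, and in AXL WT 59.8%. These near-equal shares belong to the edgeR fit of all 12 libraries, in which the groups share the spread of a gene. Fitted from its own 6 libraries, AXL KO had 11786 of 15134 genes called and AXL WT 7600 of 15453. Weighting the groups in limma-voom gave 12340 for AXL KO and 7607 for AXL WT, of 16767. The conditions for naming a gene by its size were met by 2957 (17.6%). A difference of at least 2-fold was fitted for 2938 of the called genes and of at least 4-fold for 1274. With counts scaled by library size alone the higher share of the calls was 55.1%, and with the TMM scaling used here 46.9%, so the balance of directions over all genes depends on the scaling. It also depends on single libraries, with 1428 higher and 2242 lower without AXL WT normoxia replicate 3 and 4246 higher and 4171 lower without AXL WT hypoxia replicate 1. Among the 16767 genes of the main fit, 4226 were higher and 4083 lower without AXL WT hypoxia replicate 1, so calls rose in general. List counts given below without that library are to be read beside this rise. The median interaction of all genes was −0.03 with TMM and 0.07 with library size alone. The responses of single libraries did not overlap for 6115 genes (36.5%), 18.7% higher and 17.7% lower, meaning that all 9 hypoxia minus normoxia differences of one genotype lay above all 9 of the other. Across genes the KO and WT responses had a Pearson correlation of 0.57 and a Spearman correlation of 0.60, given as a description, since genes are not independent replicates.

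The called genes were sorted by what each genotype did on its own in the edgeR fit of all 12 libraries. The number of genes called in each genotype depends on that fit, so membership of a class does too. How the classes change under other fits was not tested. The largest class was 792 genes that fell in AXL WT and were not called in AXL KO, followed by 769 that fell in AXL KO and were not called in AXL WT. Another 732 rose in AXL WT alone and 570 in AXL KO alone. Opposite and called responses were seen for 603 genes, of which 292 rose in AXL KO and fell in AXL WT and 311 did the reverse. Of the rest, 394 rose in both and more in AXL WT, 236 rose in both and more in AXL KO, 345 fell in both and more in AXL WT, 327 fell in both and more in AXL KO, and 62 were called in neither genotype alone. The sign depends on the log scale for 243 of the 4830 genes (5.03%), whose difference in CPM has the other sign, and the named genes among them are pointed out below.

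**Figure D1:**
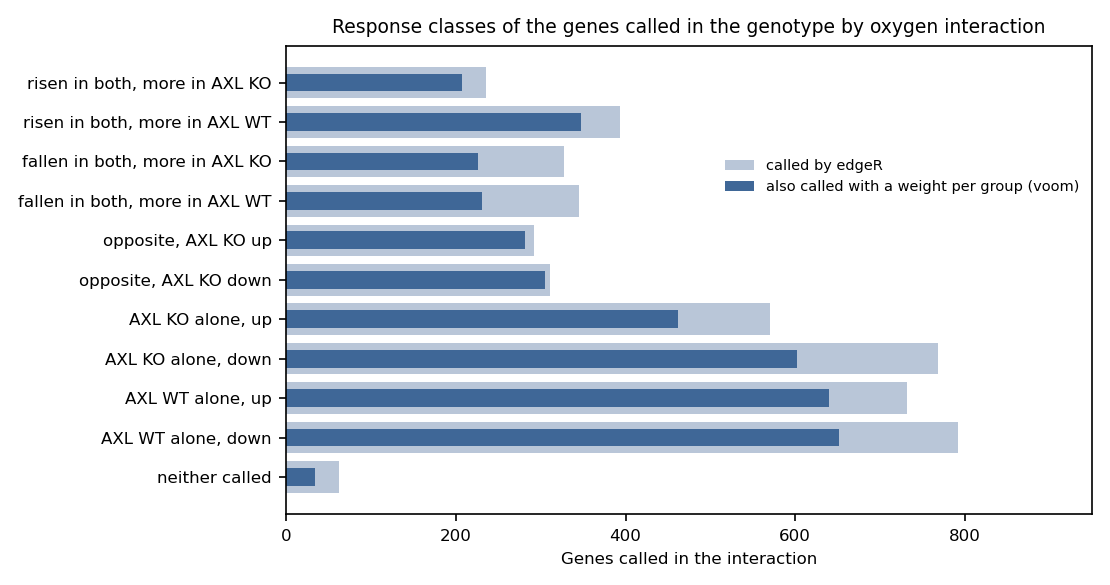
Number of genes called in the interaction (horizontal axis) in each class of response (vertical axis). Pale bars count edgeR calls, dark bars those that limma-voom with group weights called too, and the 792 genes that fell in AXL WT alone form the longest bar.

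Cell division genes fell in AXL WT, and had a median response near 0 in AXL KO, where the normoxic level was already low. Of 37 genes of mitosis, 36 were higher in the interaction and 0 lower (97.3% called, against 28.8% of all genes). Their median response was −2.17 in AXL WT and 0.22 in AXL KO, with all 37 falling in AXL WT (30.7% of all genes fell there and 29.2% rose) and 14 rising and 3 falling in AXL KO (all genes, 27.3% and 30.6%). Of 42 genes of DNA replication, 37 were higher and 0 lower, with a median response of −1.86 in AXL WT and 0.02 in AXL KO, beside −0.02 and −0.03 over all genes tested. In normoxia every KO library lay below every WT library for 37 of the 37 mitosis genes and 41 of the 42 replication genes (all genes, 40.4%). In hypoxia the KO libraries lay above all WT libraries for 17 mitosis genes and below them for 0, while 7 replication genes lay above and 18 below (all genes, 31.2% and 31.3%).

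Nusap1, a spindle microtubule protein (ENSMUSG00000027306, chromosome 2, 119618298 to 119651244), was at 50, 59.5 and 53.9 CPM in AXL WT normoxia and 6.27, 5.16 and 6.31 CPM in AXL WT hypoxia. In AXL KO, Nusap1 stood at 14.7, 20.6 and 15.2 CPM in normoxia and 15.9, 23.4 and 18.9 CPM in hypoxia. All 3 WT normoxia libraries were the highest of the 12, all 3 WT hypoxia libraries the lowest, and the KO libraries of both oxygen levels overlapped in between. Its response was −3.20 ± 0.19, adjusted p = 1.59e-07 in AXL WT and 0.21 ± 0.17, adjusted p = 0.325 in AXL KO, a difference of 3.41 ± 0.25, adjusted p = 6.24e-06. Birc5, which encodes survivin of the chromosomal passenger complex, was at 59.5, 60.7 and 65.6 CPM in AXL WT normoxia and 8.97, 6.82 and 7.64 CPM in AXL WT hypoxia. In AXL KO, Birc5 stood at 11, 16.8 and 11.2 CPM in normoxia and 12.4, 16.4 and 15.2 CPM in hypoxia. The same order held, with an interaction of 3.16 ± 0.26, adjusted p = 1.1e-05. Mcm6, a subunit of the replicative helicase (ENSMUSG00000026355, chromosome 1, 128331590 to 128359664), was at 311, 356 and 323 CPM in AXL WT normoxia and 51.9, 54.7 and 53.7 CPM in AXL WT hypoxia. In AXL KO, Mcm6 stood at 32.8, 55 and 41.5 CPM in normoxia and 42.6, 47.9 and 46 CPM in hypoxia. For this gene the 3 WT normoxia libraries stood alone, far above any other library, and the WT hypoxia and KO libraries lay close together (2.70 ± 0.22, adjusted p = 1.08e-05).

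In AXL KO 14 of the 37 mitosis genes rose and 3 fell, while 10 of the 42 replication genes rose and 12 fell. Of all genes 27.3% rose and 30.6% fell there. Rpa1, the large subunit of the single-stranded DNA binding protein, was at 114, 131 and 118 CPM in AXL WT normoxia and 69.1, 66.1 and 66.8 CPM in AXL WT hypoxia. In AXL KO, Rpa1 stood at 97.4, 122 and 117 CPM in normoxia and 354, 362 and 361 CPM in hypoxia. Only the KO hypoxia libraries stood high, with no overlap with any other group, and the responses were 1.68 ± 0.10, adjusted p = 1.95e-07 in AXL KO and −0.85 ± 0.10, adjusted p = 1.77e-05 in AXL WT (2.53 ± 0.14, adjusted p = 1.74e-06 for the difference). Uhrf1, which recruits maintenance DNA methylation to replicated DNA, was at 149, 149 and 155 CPM in AXL WT normoxia and 24.2, 12.5 and 16.4 CPM in AXL WT hypoxia. In AXL KO, Uhrf1 stood at 22.2, 37.1 and 28.3 CPM in normoxia and 51.7, 53.4 and 52.1 CPM in hypoxia. Uhrf1 rose in AXL KO (0.84 ± 0.22, adjusted p = 0.00583) and fell in AXL WT (−3.09 ± 0.23, adjusted p = 8.6e-07), and its interaction of 3.94 ± 0.32, adjusted p = 1.1e-05 was among the 10 most positive that met all naming conditions. Ect2, a regulator of cytokinesis, also rose in AXL KO and fell in AXL WT (2.46 ± 0.20, adjusted p = 1.09e-05). Pole, the catalytic subunit of DNA polymerase epsilon, fell in both and more in AXL WT, from 91.3, 87.2 and 82.5 CPM to 8.04, 8.53 and 8.54 CPM there (2.61 ± 0.25, adjusted p = 3.2e-05). Kif15, a spindle kinesin, Ticrr and Esco2, which act in origin firing and in sister chromatid cohesion, and Fbxo5, an inhibitor of the anaphase-promoting complex, had interactions of 3.95 ± 0.27, 3.76 ± 0.41, 3.62 ± 0.30 and 2.69 ± 0.34. Ccnd1, which encodes cyclin D1, fell in both and more in AXL WT, where the single libraries spread from 91.7 to 267 CPM (2.01 ± 0.39, adjusted p = 0.00305). Pcna, Tyms, Tk1, Gins3, Pold3 and Kif20a were the list members not called, with fitted interactions between 0.18 and 1.14. In all groups of genes, members given by their interaction alone were mostly picked after their values were seen.

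Promoters of both groups are shown as a description. Both lists were assembled from known genes of cell division, so the motif shares describe the lists, not the response. RefSeq promoters of the table used here run from 250 bases before to 50 bases after the start (GRCm38.p6), and the motifs shown were chosen after the gene values were seen. The cell cycle homology region TTTGAA, on either strand, was found in 24 of 33 promoters of the mitosis genes (72.7%, 31 of 37 genes matched), in 12.2% of those of the replication genes and in 12.1% of 13372 promoters of protein-coding genes tested. The E2F motif, written TTTGGCGC, TTTCCCGC or TTTCGCGC on either strand, was found in 15 of 41 promoters of the replication genes (36.6%, 35 of 42 genes matched), in 1 of 33 of the mitosis genes and in 3.28% of all. A match describes the letters of the window and is not a site. Ect2 (chr3:27153829-27154128, minus strand) is shown as a mitosis gene with 2 matches to TTTGAA, and Uhrf1 (chr17:56304063-56304362, plus strand) as a replication gene with 1 E2F match, with the matches in capitals.
Ect2: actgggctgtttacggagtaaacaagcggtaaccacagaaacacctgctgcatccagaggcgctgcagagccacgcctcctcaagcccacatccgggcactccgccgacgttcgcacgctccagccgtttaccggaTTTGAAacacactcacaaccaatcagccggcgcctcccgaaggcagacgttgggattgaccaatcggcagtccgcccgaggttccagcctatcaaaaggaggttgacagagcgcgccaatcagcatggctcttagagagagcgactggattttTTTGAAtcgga
Uhrf1: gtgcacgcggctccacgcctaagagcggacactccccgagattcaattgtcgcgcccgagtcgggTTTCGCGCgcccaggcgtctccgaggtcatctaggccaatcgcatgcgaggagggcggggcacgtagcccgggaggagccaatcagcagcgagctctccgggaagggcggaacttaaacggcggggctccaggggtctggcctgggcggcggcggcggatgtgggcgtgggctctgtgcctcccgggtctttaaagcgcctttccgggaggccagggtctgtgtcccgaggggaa

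Most glycolytic HIF targets rose in both genotypes, and the relative rise was smaller in AXL KO. Of 25 genes, 0 were higher and 20 lower in the interaction (80% called, against 15.3% of all genes called lower). The median response was 1.28 in AXL KO and 2.31 in AXL WT, with 21 and 24 of the 25 genes called as risen. The starting level differed as well: in normoxia every KO library lay above every WT library for 20 of the 25 genes (all genes, 39.3%), and in hypoxia for 8, with 7 below (all genes, 31.2% above and 31.3% below). The median log2(CPM + 1) of the list ran from 6.73 to 6.99 in AXL WT normoxia, 7.52 to 7.83 in AXL KO normoxia, 9.21 to 9.67 in AXL WT hypoxia and 9.03 to 9.11 in AXL KO hypoxia. The ranges of the genotypes were closer together in 1% oxygen than in 21% oxygen.

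Pfkfb3, which makes the activator of phosphofructokinase (ENSMUSG00000026773, chromosome 2, 11471433 to 11554077), was at 6.89, 6.36 and 7.45 CPM in AXL WT normoxia and 845, 908 and 652 CPM in AXL WT hypoxia. In AXL KO, Pfkfb3 stood at 80.2, 73 and 102 CPM in normoxia and 1253, 1213 and 1259 CPM in hypoxia. Both hypoxia groups lay far above both normoxia groups, and KO libraries lay above WT libraries at each oxygen level. It rose by 3.87 ± 0.16, adjusted p = 2.82e-08 in AXL KO and 6.86 ± 0.18, adjusted p = 2.47e-09 in AXL WT, so that the interaction was −2.99 ± 0.21, adjusted p = 4.49e-06, although the gain in CPM was larger in AXL KO by 362. Pfkl, the liver-type phosphofructokinase, was at 86.9, 89.7 and 103 CPM in AXL WT normoxia and 482, 656 and 590.4 CPM in AXL WT hypoxia. In AXL KO, Pfkl stood at 313, 359 and 374 CPM in normoxia and 524, 551 and 534 CPM in hypoxia. The KO normoxia libraries stood above the WT ones, the hypoxia libraries overlapped, and the interaction was −2.01 ± 0.17, adjusted p = 1.55e-05. Pfkp, the platelet-type form, showed −1.92 ± 0.20, adjusted p = 5.51e-05. Aldoc, Eno2, Gbe1 and Tpi1 had interactions of −2.08, −1.59, −1.56 and −1.51. Gapdh, Gys1, Gpi1, Pgm2 and Slc2a3 were not called. Gapdh was at 702, 749 and 777 CPM in AXL WT normoxia and 2186, 2226 and 2037 CPM in AXL WT hypoxia. In AXL KO, Gapdh stood at 1293, 1591 and 1619 CPM in normoxia and 4368, 4329 and 4319 CPM in hypoxia, and its interaction was 0.00 ± 0.14 (adjusted p = 1).

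Other HIF targets were more mixed. Of 42 genes, 3 were higher and 16 lower (45.2% called, against 28.8% of all genes), with median responses of 1.71 in AXL KO and 2.27 in AXL WT. In normoxia every KO library lay above every WT library for 31 of the 42 genes and below for 6 (all genes, 39.3% and 40.4%). In hypoxia 28 lay above and 3 below (all genes, 31.2% and 31.3%), so most of the list was at a higher level in AXL KO. Nos2, the inducible nitric oxide synthase (ENSMUSG00000020826, chromosome 11, 78920787 to 78960254), was at 0.0705, 0.149 and 0.0698 CPM in AXL WT normoxia and 119.9, 87.1 and 83.3 CPM in AXL WT hypoxia. In AXL KO, Nos2 stood at 27, 43.2 and 55.8 CPM in normoxia and 608, 639 and 591 CPM in hypoxia. It was barely read in WT normoxia, and the KO libraries lay above the WT libraries at each oxygen level. The rise was 3.87 ± 0.25, adjusted p = 4.25e-07 in AXL KO and 9.95 ± 0.38, adjusted p = 1.68e-08 in AXL WT (−6.08 ± 0.45, adjusted p = 6.24e-06 for the difference), while the gain in CPM was larger in AXL KO by 474. P4ha2, a collagen prolyl hydroxylase, was at 18.8, 17.3 and 19.3 CPM in AXL WT normoxia and 408, 454 and 356 CPM in AXL WT hypoxia. In AXL KO, P4ha2 stood at 124, 127 and 157 CPM in normoxia and 1010.2, 928 and 974 CPM in hypoxia. It followed the same pattern, with an interaction of −1.62 ± 0.16, adjusted p = 4.65e-05 and a gain in CPM that was larger in AXL KO by 447. Fam162a, a mitochondrial protein induced by hypoxia, showed −2.17 ± 0.23, adjusted p = 5.96e-05. The 3 higher members were Car9, a carbonic anhydrase, Lox, which crosslinks collagen, and Stc2, a secreted glycoprotein, none of them chosen by the naming rule. Car9 was at 0.881, 0.688 and 0.681 CPM in AXL WT normoxia and 1.61, 0.797 and 0.935 CPM in AXL WT hypoxia. In AXL KO, Car9 stood at 2.29, 2.31 and 2.6 CPM in normoxia and 12.4, 9.36 and 10.8 CPM in hypoxia, and only its KO response was called (1.61 ± 0.36, adjusted p = 0.00645). Stc2 was at 8.62, 6.64 and 8.89 CPM in AXL WT normoxia and 16.8, 24.7 and 20.5 CPM in AXL WT hypoxia. In AXL KO, Stc2 stood at 60.1, 51.6 and 68 CPM in normoxia and 284, 303 and 294 CPM in hypoxia, so it rose in both genotypes and more in AXL KO (0.93 ± 0.22, adjusted p = 0.00871). Lox was under 0.4 CPM in every WT library, so its fitted interaction rests on few WT reads. Vegfa, the angiogenic growth factor, was at 276, 279 and 272 CPM in AXL WT normoxia and 1986, 1504 and 1363 CPM in AXL WT hypoxia. In AXL KO, Vegfa stood at 354, 351 and 365 CPM in normoxia and 2588, 2187 and 2204 CPM in hypoxia. Vegfa rose in both genotypes, by amounts that did not differ beyond the error (0.15 ± 0.18, adjusted p = 0.566). Without AXL WT hypoxia replicate 1, 9 members of this list were higher and 17 lower. Of all 16767 genes 4226 were higher and 4083 lower without that library, against 2264 and 2566 with it. Of the 19 called members of this list 11 have the other sign as a difference in CPM, and of the 20 glycolytic ones 5.

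Hif1a, the oxygen-regulated HIF-1 subunit, was at 119.5, 126 and 131 CPM in AXL WT normoxia and 443, 725 and 739 CPM in AXL WT hypoxia. In AXL KO, Hif1a stood at 296, 276 and 285 CPM in normoxia and 526, 494 and 535 CPM in hypoxia. Its RNA rose in both genotypes, from a higher level in AXL KO, and the relative rise was smaller there (−1.48 ± 0.22, adjusted p = 0.000596). Ep300, a coactivator, and Epas1, the HIF-2 subunit, were also lower (−1.16 ± 0.35, adjusted p = 0.0282 and −0.69 ± 0.24, adjusted p = 0.0455), and the Epas1 call was lost in limma-voom with a weight per group (adjusted p = 0.412) and without an AXL WT hypoxia library (largest adjusted p = 0.0602). In AXL WT hypoxia Ep300 was at 208, 497 and 238 CPM, and without replicate 2 its interaction was −0.67. Of 12 subunits and sensors 0 were higher and 3 lower (25% called, against 28.8% of all genes), with 1 to 4 lower when each library was left out, and the hydroxylases Egln1, Egln2 and Egln3 were not called.

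The core of the hypoxia response element, ACGTG or GCGTG on either strand, was found in 25 of 34 promoters of the glycolytic genes (73.5%), in 35 of 50 of those of other HIF targets (70%) and in 60.6% of all. The share was 75% for the chaperones of the endoplasmic reticulum, 72.7% for mitosis genes and 70.7% for ribosomal protein genes, so it does not set the HIF lists apart, and it was 34.8% for cytokines. Of the HIF lists 24 of 25 and 31 of 42 genes matched the table. Among the classes of called genes the share ran from 53.6% for genes fallen in both and more in AXL KO to 68.7% for genes risen in both and more in AXL KO, leaving out the 62 genes called in neither genotype (75.5%). The Pfkfb3 promoter is shown as that of the glycolytic gene with the most negative interaction (chr2:11553880-11554179, minus strand, 1 match, in capitals), the one of its matching RefSeq starts that lies nearer the annotated gene end.
Pfkfb3: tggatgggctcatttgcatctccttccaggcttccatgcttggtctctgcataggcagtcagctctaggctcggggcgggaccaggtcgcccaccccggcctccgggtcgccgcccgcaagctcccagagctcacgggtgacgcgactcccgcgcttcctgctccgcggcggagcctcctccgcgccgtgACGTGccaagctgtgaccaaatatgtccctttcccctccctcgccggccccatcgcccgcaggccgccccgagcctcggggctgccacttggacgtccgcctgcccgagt

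**Figure D2:**
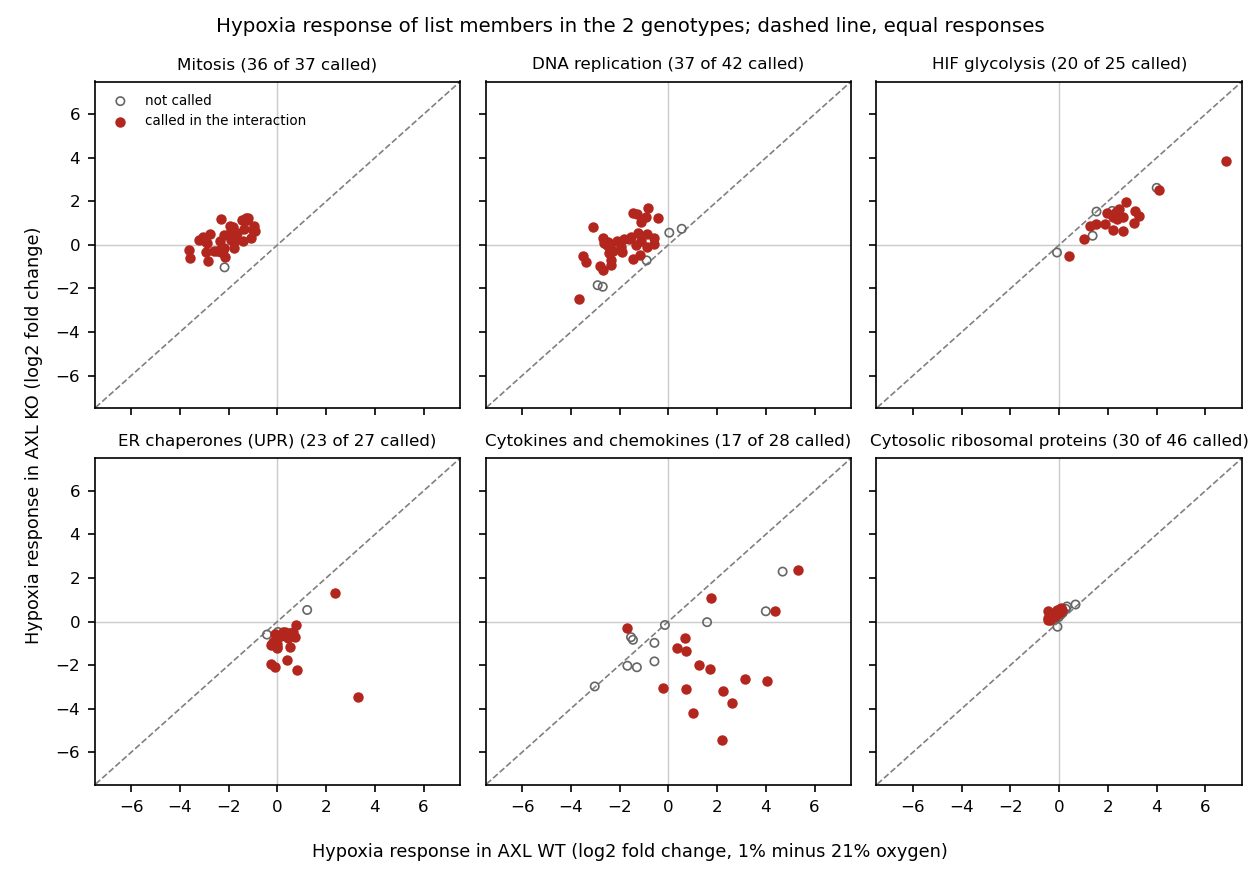
Hypoxia response of single list members, as log2 fold changes in AXL WT (horizontal axis) and AXL KO (vertical axis), with filled points for genes called in the interaction and the dashed line for equal responses. Called mitosis and DNA replication genes lie above the line and left of 0, glycolytic genes below the line with both responses mostly above 0, and most called chemokines and chaperones in the lower right.

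Most genes of protein folding in the endoplasmic reticulum fell in AXL KO, while in AXL WT most were not called. Of 27 chaperones and regulators of the unfolded protein response, 0 were higher and 23 lower (85.2% called, against 28.8% of all genes). Median responses were −0.70 in AXL KO and 0.23 in AXL WT. In AXL KO 24 fell and 1 rose (all genes, 30.6% and 27.3%), and in AXL WT 9 rose and 1 fell (all genes, 29.2% and 30.7%). The list's median log2(CPM + 1), over group means, was 7.81 in AXL KO normoxia, 6.89 in AXL WT normoxia, 6.98 in AXL KO hypoxia and 7.01 in AXL WT hypoxia, so the KO normoxia libraries stood apart at the high end. Hspa5, the chaperone BiP (ENSMUSG00000026864, chromosome 2, 34771970 to 34777547), was at 944, 1089 and 967 CPM in AXL WT normoxia and 1394, 2315 and 1592 CPM in AXL WT hypoxia. In AXL KO, Hspa5 stood at 3718, 1875 and 1986 CPM in normoxia and 516, 546 and 563 CPM in hypoxia. The 3 KO hypoxia libraries were the lowest of all, KO normoxia replicate 1 was the highest, and the WT hypoxia libraries overlapped the KO normoxia ones. Its responses were −2.22 ± 0.25, adjusted p = 2.2e-05 in AXL KO and 0.82 ± 0.25, adjusted p = 0.0124 in AXL WT, a difference of −3.04 ± 0.35, adjusted p = 0.000107. Xbp1, a transcription factor of this pathway, was at 110.1, 118 and 109 CPM in AXL WT normoxia and 111, 95.7 and 107 CPM in AXL WT hypoxia. In AXL KO, Xbp1 stood at 278, 261 and 251 CPM in normoxia and 61.9, 59.5 and 61.5 CPM in hypoxia. Both WT groups overlapped, the KO normoxia libraries stood above them and the KO hypoxia libraries below (−2.01 ± 0.12, adjusted p = 2.82e-06). The disulfide isomerase Pdia6 also rose in AXL WT and fell in AXL KO (−1.69 ± 0.15, adjusted p = 2.12e-05), and Hyou1, Manf, Atf6, Pdia4, Calr and Hsp90b1 had interactions of −2.17, −1.67, −1.43, −1.19, −0.95 and −0.96.

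The ER stress response element, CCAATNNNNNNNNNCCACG on either strand, was found in 9 of 24 promoters of this list (37.5%) and in 20 of 13372 of all (0.15%). The list was assembled from known members of the pathway, so the share describes the list, not the response. The list had 23 of 27 genes matched. The promoter of Hspa5 is shown as that of the best known member (chr2:34771840-34772139, plus strand), with the match in capitals.
Hspa5: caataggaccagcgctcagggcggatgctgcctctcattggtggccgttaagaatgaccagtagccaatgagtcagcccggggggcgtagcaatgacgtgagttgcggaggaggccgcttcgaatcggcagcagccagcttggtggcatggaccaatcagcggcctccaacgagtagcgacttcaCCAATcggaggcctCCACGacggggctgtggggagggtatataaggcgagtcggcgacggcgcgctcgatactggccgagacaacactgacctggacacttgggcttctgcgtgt

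Amino-acid stress genes are activated by ATF4 when amino acids or translation run short. Of 36, 3 were higher and 13 lower (44.4% called, against 28.8% of all genes). In each genotype 25 fell and 4 rose, with medians of −1.27 in AXL KO and −0.93 in AXL WT. Of all genes 30.6% fell and 27.3% rose in AXL KO, and 30.7% fell and 29.2% rose in AXL WT. Asns, asparagine synthetase, was at 410.2, 401 and 455 CPM in AXL WT normoxia and 102, 137 and 132 CPM in AXL WT hypoxia. In AXL KO, Asns stood at 237, 213 and 156 CPM in normoxia and 13.4, 16.2 and 15.8 CPM in hypoxia. It fell more in AXL KO in relative terms (−1.97 ± 0.23, adjusted p = 0.000105), while the loss in CPM was larger in AXL WT. Slc7a11, the cystine importer, was at 108, 87 and 115 CPM in AXL WT normoxia and 10, 9.54 and 14.4 CPM in AXL WT hypoxia. In AXL KO, Slc7a11 stood at 57.9, 34.3 and 29.4 CPM in normoxia and 0.243, 0.403 and 0.55 CPM in hypoxia. The KO hypoxia libraries all lay below 1 CPM, and again the relative fall was larger in AXL KO (−3.45 ± 0.44, adjusted p = 0.000193) and the loss in CPM larger in AXL WT. Nupr1, a stress-induced transcription regulator, rose in both and more in AXL WT (−2.49 ± 0.29, adjusted p = 0.000109). Atf3, a stress-induced transcription factor, rose in AXL WT alone (−2.83 ± 0.37, adjusted p = 0.000235). Psat1, Slc1a5 and Vldlr were the 3 higher members, and their number ran from 1 to 7 when each library was left out, with 7 without AXL WT hypoxia replicate 1.

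Many chemokines rose in AXL WT and fell in AXL KO. Of 28 cytokines and chemokines measured, 1 was higher and 16 lower (60.7% called, against 28.8% of all genes). The median interaction was −2.23, beside −0.03 over all genes. The median was −1.42 without AXL WT hypoxia replicate 2 and −1.18 with only replicate 1 of that group kept. In AXL WT 13 rose and 6 fell (all genes, 29.2% and 30.7%). In AXL KO 2 rose and 17 fell (all genes, 27.3% and 30.6%). Cxcl5, a neutrophil-attracting chemokine (ENSMUSG00000029371, chromosome 5, 90759360 to 90761624), was at 20.2, 17.5 and 25.5 CPM in AXL WT normoxia and 85.9, 84.2 and 120.1 CPM in AXL WT hypoxia. In AXL KO, Cxcl5 stood at 149.8, 220.0 and 151 CPM in normoxia and 3.61, 3.78 and 4.51 CPM in hypoxia. The KO libraries stood above all others in normoxia and below all others in hypoxia, with no overlap at either level. Its responses were −5.45 ± 0.24, adjusted p = 4.17e-08 in AXL KO and 2.20 ± 0.20, adjusted p = 3.81e-06 in AXL WT, and its interaction of −7.65 ± 0.31, adjusted p = 3.43e-07 was the fourth most negative among genes that met all naming conditions.

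Cxcl3, another ligand of CXCR2, was at 11.7, 8.67 and 16.1 CPM in AXL WT normoxia and 222, 204 and 179 CPM in AXL WT hypoxia. In AXL KO, Cxcl3 stood at 1.77, 2.54 and 1.11 CPM in normoxia and 0.267, 0.291 and 0.264 CPM in hypoxia. It was lower in KO than in WT libraries at both oxygen levels and moved in opposite directions (−6.76 ± 0.45, adjusted p = 3.5e-06). Cxcl1, from the same gene cluster on chromosome 5, was at 40.1, 41 and 48.9 CPM in AXL WT normoxia and 131, 61 and 73.7 CPM in AXL WT hypoxia. In AXL KO, Cxcl1 stood at 90.3, 115 and 77.9 CPM in normoxia and 4.73, 5.53 and 5.15 CPM in hypoxia. Its WT hypoxia libraries lay above the WT normoxia ones, and its KO hypoxia libraries were the lowest of the 12 (−5.23 ± 0.37, adjusted p = 4.84e-06). Cxcl2 showed −5.79 ± 0.63, adjusted p = 6.91e-05, with 462, 161 and 133 CPM in the AXL WT hypoxia libraries. These 4 genes lie within chr5:90759360-90905938 and are similar in sequence. Of the others called lower, Ccl7, Ccl2, Csf2, Il11 and Ccl5 had interactions of −6.33, −5.42, −3.87, −3.87 and −3.81, were read little in some groups and were not chosen by the naming rule. Il34, a ligand of the CSF1 receptor, was the 1 higher member (1.39 ± 0.45, adjusted p = 0.0358), and the number of higher members ran from 0 to 4 when each library was left out.

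NF-kappaB subunits and feedback genes were 0 higher and 11 lower of 20 (55% called, against 28.8% of all genes). Ptgs2, the inducible cyclooxygenase (ENSMUSG00000032487, chromosome 1, 150100031 to 150108227), was at 166, 140.0 and 194 CPM in AXL WT normoxia and 9721, 26421 and 18472 CPM in AXL WT hypoxia. In AXL KO, Ptgs2 stood at 74, 50.2 and 47.4 CPM in normoxia and 189.7, 174 and 198 CPM in hypoxia. It rose in both genotypes, and the WT hypoxia libraries lay far above all others (6.77 ± 0.37, adjusted p = 1.03e-07 in AXL WT, 1.71 ± 0.30, adjusted p = 0.000454 in AXL KO, interaction −5.06 ± 0.43, adjusted p = 1.56e-05). Nfkbiz, a nuclear IkappaB protein, rose in both and more in AXL WT (−1.73 ± 0.19, adjusted p = 7.01e-05). Birc3, an NF-kappaB-induced inhibitor of apoptosis, was at 13.5, 12.5 and 13.5 CPM in AXL WT normoxia and 8.06, 12.9 and 12.9 CPM in AXL WT hypoxia. In AXL KO, Birc3 stood at 19.3, 22.4 and 22.3 CPM in normoxia and 3.78, 4.99 and 4.73 CPM in hypoxia. Birc3 fell in AXL KO and was not called in AXL WT (−2.02 ± 0.26, adjusted p = 0.000225). Il1r1, the interleukin-1 receptor, was at 0.441, 0.484 and 0.384 CPM in AXL WT normoxia and 0.618, 10.5 and 4.57 CPM in AXL WT hypoxia. In AXL KO, Il1r1 stood at 7.36, 5.85 and 8.64 CPM in normoxia and 0.606, 0.761 and 0.748 CPM in hypoxia. In AXL WT hypoxia replicate 1 was near the normoxic level and replicates 2 and 3 were well above it, and the interaction of −6.94 ± 1.01, adjusted p = 0.00049 ranged from −7.45 to −5.94 when 1 of these libraries was left out. With only replicate 1 of that group kept the Il1r1 interaction was −3.87.

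Immediate early genes, the first to respond to growth factor signalling, were 1 higher and 14 lower of 26 (57.7% called, against 28.8% of all genes, and 5 higher without AXL WT hypoxia replicate 1). ERK feedback genes were 3 higher and 7 lower of 19 (52.6% called, and 4 lower without AXL KO hypoxia replicate 2 or 3). Egr1, a zinc finger transcription factor, was at 50.5, 59.4 and 49.8 CPM in AXL WT normoxia and 14.3, 18 and 10.8 CPM in AXL WT hypoxia. In AXL KO, Egr1 stood at 396, 417 and 475 CPM in normoxia and 18.7, 21.7 and 19.7 CPM in hypoxia. It fell in both genotypes, from a normoxic level that was far higher in AXL KO to a hypoxic level just above that of AXL WT (−2.53 ± 0.23, adjusted p = 2.27e-05). Dusp6, a phosphatase of ERK, was at 64.7, 68.3 and 69 CPM in AXL WT normoxia and 59.3, 50.6 and 32.6 CPM in AXL WT hypoxia. In AXL KO, Dusp6 stood at 169.6, 164 and 159.7 CPM in normoxia and 19, 22.6 and 19.8 CPM in hypoxia. KO libraries were the highest in normoxia and the lowest in hypoxia (−2.50 ± 0.25, adjusted p = 3.99e-05), and Spry4, another inhibitor of the pathway, showed −2.83 ± 0.35, adjusted p = 0.000179. Areg, an EGF receptor ligand, fell in both and more in AXL KO, a call that limma-voom with a weight per group did not share (−1.04 ± 0.27, adjusted p = 0.013 and adjusted p = 0.0691). Egfr, the receptor itself, was at 0.441, 0.298 and 0.384 CPM in AXL WT normoxia and 2.43, 10.8 and 4.28 CPM in AXL WT hypoxia. In AXL KO, Egfr stood at 49.3, 43.8 and 50.2 CPM in normoxia and 36.4, 34.9 and 35.7 CPM in hypoxia. It rose in AXL WT from under 0.5 CPM and was not called in AXL KO, where it was higher throughout (−4.37 ± 0.60, adjusted p = 0.000346). Errfi1, an inhibitor of ERBB receptors, rose in AXL KO and fell in AXL WT (1.88 ± 0.21, adjusted p = 9.54e-05). Erbb2, the driver of these tumours, stood at 2407, 131 and 359.5 CPM in the AXL WT hypoxia libraries and was not called (0.59 ± 1.00, adjusted p = 0.701). Without AXL WT hypoxia replicate 1, 8 of 15 ERBB receptors and ligands were higher, against 1 with it. Of all 16767 genes 4226 were higher without that library, against 2264 with it.

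**Figure D3:**
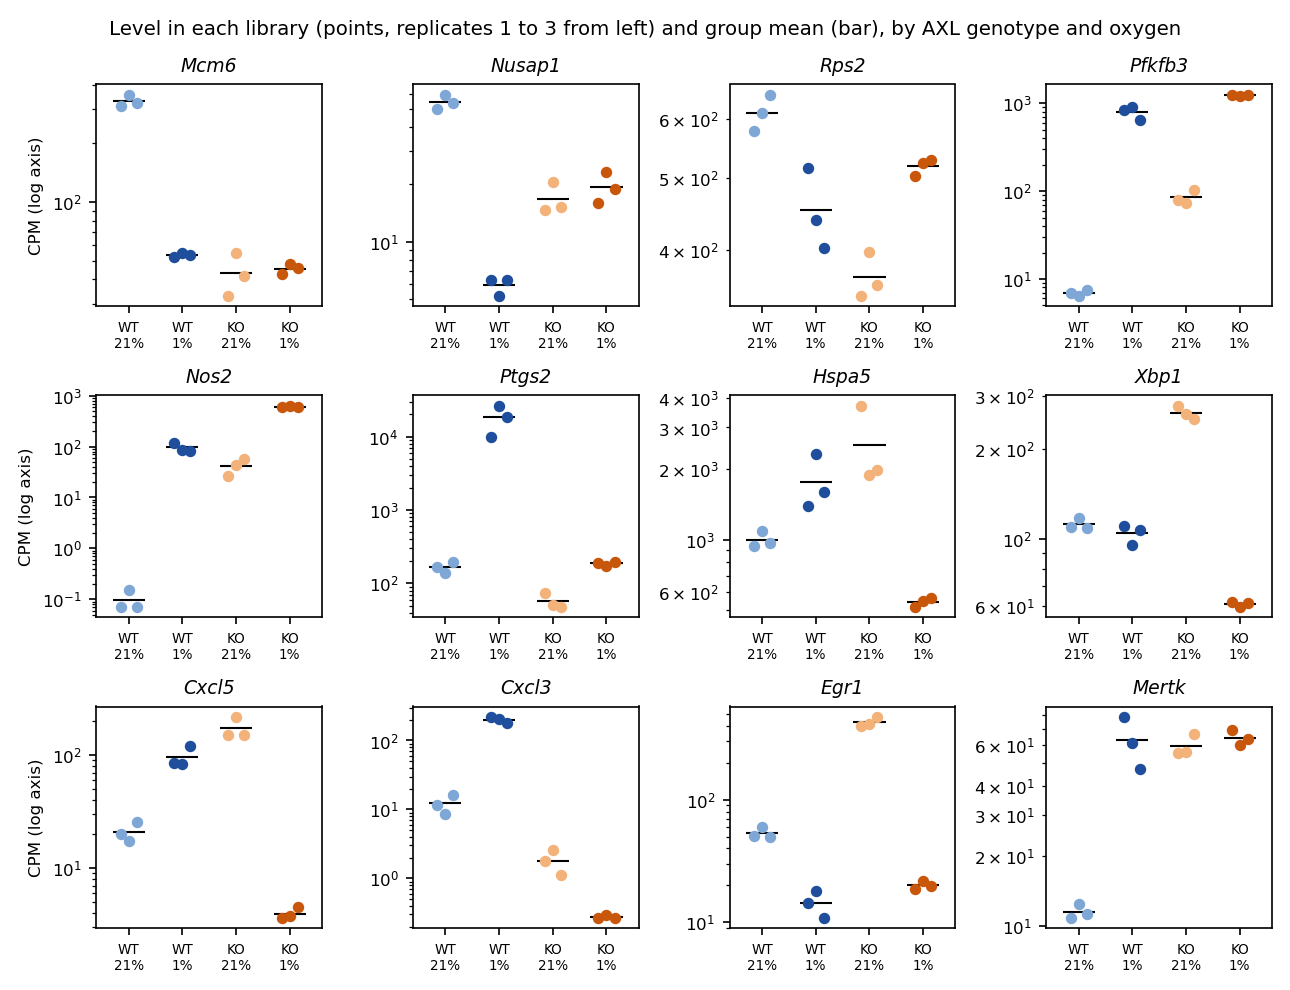
Level of 12 genes in each library, in CPM on log axes, with points for replicates 1 to 3 from left to right and a bar for the group mean, by genotype and oxygen level. Mcm6 and Nusap1 are high in the WT normoxia libraries, Hspa5, Xbp1, Cxcl5 and Egr1 fall steeply in the KO libraries, and Ptgs2 is high in the WT hypoxia libraries.

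The other members of AXL's own family differed in their responses. Mertk, a TAM receptor (ENSMUSG00000014361, chromosome 2, 128698956 to 128802894), was at 10.8, 12.4 and 11.3 CPM in AXL WT normoxia and 79.1, 61.2 and 47.2 CPM in AXL WT hypoxia. In AXL KO, Mertk stood at 55.1, 55.7 and 66.7 CPM in normoxia and 69.2, 59.8 and 63.4 CPM in hypoxia. The WT normoxia libraries were the lowest, and the other 3 groups overlapped or lay close together, so the WT response was called (2.44 ± 0.17, adjusted p = 5.54e-07) and the KO response was not (0.12 ± 0.16, adjusted p = 0.566), with a difference of −2.33 ± 0.23, adjusted p = 4.63e-05. Pros1, which encodes the ligand protein S, was at 28.7, 29.5 and 30.5 CPM in AXL WT normoxia and 60, 326 and 139 CPM in AXL WT hypoxia. In AXL KO, Pros1 stood at 39.8, 43.6 and 48.1 CPM in normoxia and 13.4, 15.9 and 15.5 CPM in hypoxia. Pros1 rose in AXL WT and fell in AXL KO (−4.12 ± 0.61, adjusted p = 0.000563), and the WT hypoxia libraries ranged from 60 to 326 CPM. Tyro3, the third receptor, fell in both genotypes and was not called in the interaction (−0.02 ± 0.19, adjusted p = 0.969). Gas6, the other ligand, was at 0.0175 CPM or less in every WT library and at 34 CPM or more in every KO library, so its WT response cannot be read. Lgals3, a galectin that binds MERTK, was the 1 higher member of the 7 (0.75 ± 0.14, adjusted p = 0.00248), beside the 2 lower ones. Of the 7, 42.9% were called, against 28.8% of all genes.

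Ribosomal protein genes had small interactions in 1 direction. Of 46, 30 were higher and 0 lower (65.2% called, against 28.8% of all genes). Median responses were 0.39 in AXL KO and −0.03 in AXL WT. Rps2 was at 579.5, 612 and 648 CPM in AXL WT normoxia and 516, 439.9 and 403 CPM in AXL WT hypoxia. In AXL KO, Rps2 stood at 347, 398 and 359 CPM in normoxia and 503, 525 and 529 CPM in hypoxia. Its libraries were highest in WT normoxia and lowest in KO normoxia, and the hypoxia libraries of KO overlapped those of WT (0.93 ± 0.14, adjusted p = 0.000711). The count depends on single libraries: it was 11, 7 and 9 without AXL WT normoxia replicate 1, 2 or 3, 19 without AXL KO normoxia replicate 1 or 3, 17 without AXL KO hypoxia replicate 2 or 3, and 42 without AXL WT hypoxia replicate 1. Ribosomal protein genes have many near-identical pseudogenes, and fragments that mapped to several places were not counted. Mitochondrial ribosomal proteins were 7 higher and 0 lower of 30 (23.3% called, against 28.8% of all genes, with 3 to 8 higher when each library was left out). Factors of ribosome biogenesis were 17 higher and 2 lower of 40 (47.5% called, 9 to 22 higher when each library was left out), with a median response of −0.61 in AXL KO and −1.03 in AXL WT. Rrp9, a component of the U3 particle, showed 1.32 ± 0.23, adjusted p = 0.00157.

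Cholesterol synthesis genes were 0 higher and 10 lower of 23 (43.5% called, against 28.8% of all genes). Without AXL WT hypoxia replicate 1 they were 1 higher and 12 lower. The lower ones included Cyp51 (−1.41 ± 0.16, adjusted p = 8.71e-05) and Msmo1 (−1.11 ± 0.14, adjusted p = 0.000225). Cyp51 was at 140.3, 142 and 171 CPM in AXL WT normoxia and 155, 178 and 172 CPM in AXL WT hypoxia. In AXL KO, Cyp51 stood at 214, 250.4 and 254 CPM in normoxia and 91.3, 108 and 102 CPM in hypoxia, so the KO libraries were the highest of all in normoxia and the lowest in hypoxia. Fatty acid synthesis genes were 0 higher and 6 lower of 17 (35.3% called, against 28.8% of all genes, and 3 higher without AXL WT hypoxia replicate 1). Their member Me1, the NADPH-making malic enzyme, was at 56.9, 62.9 and 66.1 CPM in AXL WT normoxia and 749, 1097 and 1216 CPM in AXL WT hypoxia. In AXL KO, Me1 stood at 67.8, 79.4 and 83.3 CPM in normoxia and 265, 251 and 262 CPM in hypoxia. It rose in both genotypes and more in AXL WT (−2.29 ± 0.22, adjusted p = 3.3e-05). Targets of NRF2, the antioxidant regulator, went both ways, with 6 higher and 7 lower of 23 (56.5% called, against 28.8% of all genes). Txnrd1, thioredoxin reductase, was higher (1.04 ± 0.16, adjusted p = 0.000598).

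Genes encoded in the mitochondrial genome were 0 higher and 4 lower of 7 measured (57.1% called, against 28.8% of all genes). mt-Nd2, a subunit of complex I, was at 913, 869 and 769.6 CPM in AXL WT normoxia and 285, 544 and 583 CPM in AXL WT hypoxia. In AXL KO, mt-Nd2 stood at 853, 938 and 868 CPM in normoxia and 111, 119.5 and 132 CPM in hypoxia. It fell in both and more in AXL KO, with no overlap between KO hypoxia and any other group (−2.02 ± 0.30, adjusted p = 0.000511). mt-Co1, a subunit of complex IV, rose in AXL WT and was not called in AXL KO (−0.79 ± 0.14, adjusted p = 0.00145), and mt-Nd6 was lower too (−3.14 ± 0.55, adjusted p = 0.00166). Of 48 nuclear genes of oxidative phosphorylation, 1 was higher and 6 lower (14.6% called, below the 28.8% of all genes), with 2 to 10 lower when each library was left out.

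Matrix and lineage genes held large single differences. Collagens and matrix genes were 4 higher and 14 lower of 41 (43.9% called, against 28.8% of all genes). Without AXL WT hypoxia replicate 1 they were 14 higher and 15 lower. Of all 16767 genes 4226 were higher and 4083 lower without that library, against 2264 and 2566 with it. Col8a1, a short-chain collagen, was at 183, 188 and 193 CPM in AXL WT normoxia and 757, 719.9 and 707 CPM in AXL WT hypoxia. In AXL KO, Col8a1 stood at 306, 343 and 422 CPM in normoxia and 272, 274 and 274 CPM in hypoxia. The WT hypoxia libraries stood above all others (−2.34 ± 0.15, adjusted p = 3.17e-06). Col1a1, the main fibrillar collagen chain, rose in both and more in AXL WT in relative terms (−3.24 ± 0.35, adjusted p = 6.79e-05), with a gain in CPM that was larger in AXL KO. Ltbp2, a matrix protein, was at 84.1, 78.3 and 91.9 CPM in AXL WT normoxia and 92.9, 108 and 88.4 CPM in AXL WT hypoxia. In AXL KO, Ltbp2 stood at 17.2, 15.6 and 20.3 CPM in normoxia and 1.16, 1.72 and 1.45 CPM in hypoxia. Its WT libraries overlapped across oxygen levels, and its KO hypoxia libraries stood far below the KO normoxia ones (−3.79 ± 0.22, adjusted p = 2.08e-06). Mesenchymal genes were 2 higher and 7 lower of 19 (47.4% called, against 28.8% of all genes). Among them Prrx1, a transcription factor, fell in both and more in AXL KO (−3.52 ± 0.46, adjusted p = 0.000242), and Snai2 rose in AXL WT alone (−2.45 ± 0.35, adjusted p = 0.000457). Krt7, a simple epithelial keratin, fell in AXL WT alone (2.17 ± 0.39, adjusted p = 0.00202). Cdh1, of the same epithelial list, went the other way and rose in AXL WT alone (−1.79 ± 0.43, adjusted p = 0.00958). Gata3, the luminal regulator, rose in AXL WT alone (−1.43 ± 0.21, adjusted p = 0.000485). The epithelial list was 3 higher and 2 lower of 26 (19.2% called, and 10 higher without AXL WT hypoxia replicate 1). The mammary luminal list was 1 higher and 8 lower of 17 (52.9% called), and the basal and myoepithelial list 3 higher and 4 lower of 13 (53.8% called). Of all genes 28.8% were called. Without AXL WT hypoxia replicate 1 the luminal list held 4 higher and 8 lower and the basal list 6 and 4. Mylk, myosin light chain kinase, rose in AXL WT and fell in AXL KO (−4.11 ± 0.29, adjusted p = 5.24e-06). Interferon-stimulated genes were 8 higher and 2 lower of 34 (29.4% called, close to all genes), with 3 to 15 higher when each library was left out and 15 without AXL WT hypoxia replicate 1.

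**Figure D4:**
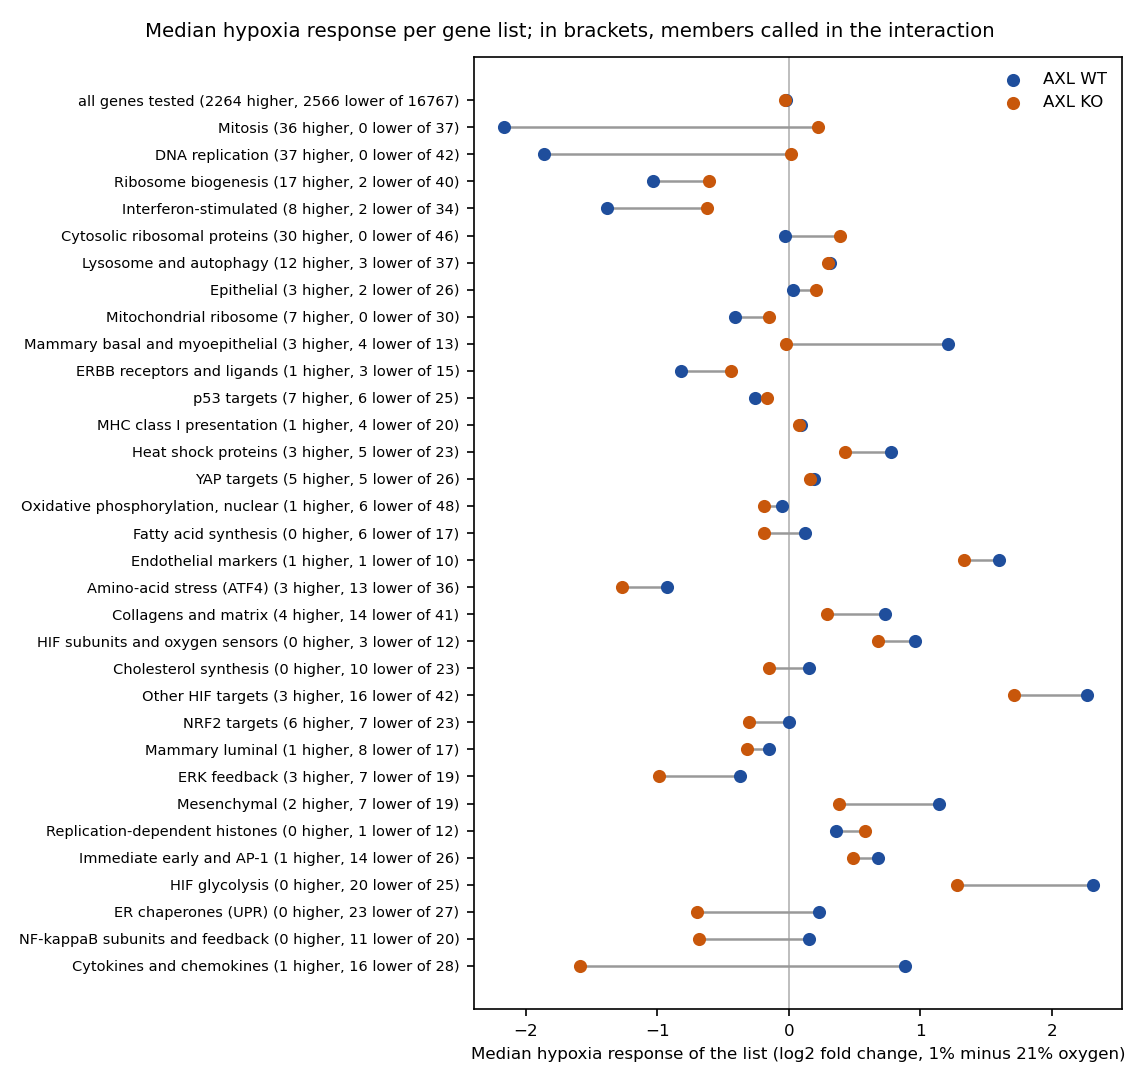
Median hypoxia response of each list with at least 10 measured members (horizontal axis, log2 fold change from 21% to 1% oxygen) in AXL WT and AXL KO, ordered by the median interaction, with all genes tested at the top. In brackets are the members called higher and lower, and mitosis and cytokine genes stand at the 2 ends.

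The genes with the most positive interaction that met all naming conditions were Fam19a5, L1cam, Dlk2, Oas3, Defb1, Espn, Kif15, Uhrf1, Greb1 and Ticrr. Fam19a5, a secreted protein, was at 14.9, 16.4 and 15.3 CPM in AXL WT normoxia and 0.331, 0.187 and 0.353 CPM in AXL WT hypoxia. In AXL KO, Fam19a5 stood at 13.1, 18.9 and 21.5 CPM in normoxia and 26, 28.6 and 25.5 CPM in hypoxia. Its WT hypoxia libraries were near 0 and all other libraries at 13.1 CPM or more (6.30 ± 0.31, adjusted p = 1.64e-06). Espn, an actin-bundling protein, was at 20.9, 22.3 and 21.1 CPM in AXL WT normoxia and 162, 132 and 170.1 CPM in AXL WT hypoxia. In AXL KO, Espn stood at 1.61, 1.93 and 3.03 CPM in normoxia and 255, 254 and 244 CPM in hypoxia. It rose in both genotypes, from the lowest level of all in KO normoxia to the highest in KO hypoxia (3.99 ± 0.26, adjusted p = 3.17e-06). L1cam, a neural cell adhesion molecule, was at 14.3, 13.8 and 12.1 CPM in AXL WT normoxia and 79.1, 34.3 and 41.8 CPM in AXL WT hypoxia. In AXL KO, L1cam stood at 0.554, 0.621 and 0.624 CPM in normoxia and 59.5, 54.4 and 49.1 CPM in hypoxia. It too was lowest in KO normoxia and rose in both, with overlap between the hypoxic KO and WT libraries (4.55 ± 0.39, adjusted p = 1.51e-05). Oas3, a sensor of double-stranded RNA, was at 27.2, 31.4 and 25.3 CPM in AXL WT normoxia and 32.2, 2.51 and 14 CPM in AXL WT hypoxia. In AXL KO, Oas3 stood at 0.929, 1.54 and 2.5 CPM in normoxia and 20.9, 20.3 and 18.9 CPM in hypoxia. It rose in AXL KO, and the WT hypoxia libraries ranged from 2.51 to 32.2 CPM (4.38 ± 0.90, adjusted p = 0.0043).

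The most negative under the same conditions were Gper1, Ogn, B4galt4, Cxcl5, Fam167a, Il1r1, Cilp2, Nos2, Cxcl2 and Mmp3. Gper1, a G protein-coupled oestrogen receptor (ENSMUSG00000053647, chromosome 5, 139423151 to 139427800), was at 0.617, 0.391 and 0.436 CPM in AXL WT normoxia and 66, 411 and 173 CPM in AXL WT hypoxia. In AXL KO, Gper1 stood at 12.1, 16.5 and 17.1 CPM in normoxia and 5.09, 4.79 and 4.36 CPM in hypoxia. It rose in AXL WT from under 1 CPM and fell in AXL KO, without overlap between any groups (−10.48 ± 0.81, adjusted p = 8.14e-06). B4galt4, a galactosyltransferase, was at 0.0705, 0.093 and 0.122 CPM in AXL WT normoxia and 2.05, 10.7 and 7.02 CPM in AXL WT hypoxia. In AXL KO, B4galt4 stood at 5.56, 6.66 and 6.47 CPM in normoxia and 1.84, 2.33 and 2.02 CPM in hypoxia. It moved in opposite directions as well (−7.66 ± 0.73, adjusted p = 3.28e-05). Ogn and Cilp2, both matrix proteins, were read near 0 in WT normoxia and unevenly in AXL WT hypoxia, at 0.221, 29.6 and 7.79 CPM and at 0.685, 54.9 and 6.13 CPM. Their interactions of −8.64 ± 1.68 and −6.62 ± 1.59 therefore rest on replicates 2 and 3, and without 1 AXL WT hypoxia library they ranged from −9.20 to −7.01 and from −7.18 to −4.04. With only replicate 1 of that group kept they were −2.84 and −1.72. Mmp3, a matrix metalloproteinase, and Fam167a had interactions of −5.79 ± 0.66, adjusted p = 9.89e-05 and −6.94 ± 0.86, adjusted p = 0.000177. In AXL WT hypoxia Mmp3 was at 4.26, 23 and 14.2 CPM and Fam167a at 3.16, 33.7 and 15.2 CPM, so replicate 1 was the lowest for both. Slc6a2, the noradrenaline transporter, fell in both genotypes and more in AXL KO, where the hypoxia libraries held at most 0.112 CPM (−4.53 ± 0.45, adjusted p = 4.15e-05). Ace, angiotensin-converting enzyme, fell only in AXL KO by the test, from 309, 257 and 376 to 24.2, 18.9 and 26 CPM (−4.42 ± 0.63, adjusted p = 0.000438). In AXL WT hypoxia Ace was at 38.2, 9.14 and 9.93 CPM.

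The naming rule also took up to 3 genes per class of response, some of which rest on uneven AXL WT hypoxia libraries. Samd9l, an interferon-induced protein, was at 25.6, 28.7 and 24.3 CPM in AXL WT normoxia and 2.89, 8.62 and 16.2 CPM in AXL WT hypoxia. In AXL KO, Samd9l stood at 15.5, 16.5 and 15.2 CPM in normoxia and 0.267, 0.426 and 0.44 CPM in hypoxia. It fell in both and more in AXL KO in relative terms (−3.86 ± 0.67, adjusted p = 0.00155), with a larger loss of CPM in AXL WT. Stc1, a secreted glycoprotein induced by hypoxia, was at 0.529, 0.521 and 0.681 CPM in AXL WT normoxia and 15.9, 118 and 59.3 CPM in AXL WT hypoxia. In AXL KO, Stc1 stood at 2.39, 3.38 and 4.44 CPM in normoxia and 31.5, 29.9 and 28.2 CPM in hypoxia. It rose in both and more in AXL WT (−3.66 ± 0.78, adjusted p = 0.00514). With only AXL WT hypoxia replicate 1 of that group kept the Stc1 interaction was −1.65. Cited4, a partner of CBP and p300, was at 15.8, 20.6 and 14 CPM in AXL WT normoxia and 2.74, 0.609 and 0.81 CPM in AXL WT hypoxia. In AXL KO, Cited4 stood at 5.75, 5.81 and 8.03 CPM in normoxia and 5.19, 8.2 and 7.99 CPM in hypoxia. Its WT hypoxia libraries were the lowest of the 12, its KO libraries overlapped across oxygen levels, and the interaction was 3.72 ± 0.61, adjusted p = 0.00112. Rspo3, a secreted enhancer of Wnt signalling, rose in AXL WT alone (−5.10 ± 1.18, adjusted p = 0.00796), with 0.663, 17.5 and 4.42 CPM in the AXL WT hypoxia libraries, and its interaction ranged from −5.64 to −3.55 without 1 of them. With only replicate 1 of that group kept the Rspo3 interaction was −1.61.

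The cells were checked for the lineage the labels give and for other cell types. Krt8, Krt18 and Erbb2 were read in every library, at 323, 372 and 131 CPM or more, with each minimum in AXL WT hypoxia replicate 2. In AXL WT hypoxia Krt8 was at 828, 323 and 418 CPM and Krt18 at 1159, 372 and 382 CPM. In the other groups they were at 623 and 937 CPM or more. Epcam, another epithelial marker, was at 20.6 to 104 CPM in the WT and 6.11 to 12.5 CPM in the KO libraries. Ptprc, Cd3e, Adgre1, Lum, Pecam1, Cdh5, Adipoq, Plin1 and Krt5, which define leukocytes, T cells, macrophages, fibroblasts, endothelium, adipocytes and basal epithelium, stayed below 1 CPM in all 12 libraries. Other defining markers were read: Cd68 of macrophages at 48.9 to 85.2 CPM in the KO and 5.77 to 12.2 CPM in the WT libraries, and Pdgfra of fibroblasts at 8.12 to 67.8 CPM over all groups. Krt14 of basal epithelium was at 31.6 to 137 CPM in the WT and 0.5 to 1.79 CPM in the KO libraries. Of 16 leukocyte markers 7 were measured and 2, H2-Aa and Ms4a1, were at 0 in all libraries, and their summed level was 72.3 to 331 CPM in AXL WT hypoxia and 56.9 to 129.9 CPM in the other groups. Csf1r, the CSF1 receptor, accounted for 5.41, 145 and 41.1 CPM of it in AXL WT hypoxia and was not called. Of 13 fibroblast markers 7 were measured and none was at 0 throughout, with sums of 415 to 852 CPM in AXL WT hypoxia and 283 to 408 CPM elsewhere. Of 14 endothelial markers 10 were measured and 2, Sox17 and Tie1, were at 0 throughout, with sums of 35.1 to 49.3 CPM in the KO libraries and 4.76 to 16.1 CPM in the WT libraries. Of 11 adipocyte markers 5 were measured and 2, Cfd and Lep, were at 0 throughout, with sums of 40.4 to 75.2 CPM over all groups. These lists held 0 higher and 3 lower (leukocyte), 0 and 3 (fibroblast), 1 and 1 (endothelial) and 0 and 1 (adipocyte) in the interaction. The fibroblast list had 42.9% called, against 28.8% of all genes, and held 1 higher and 6 lower without AXL WT hypoxia replicate 1. Trp63, a basal regulator, was at 14.1, 12.7 and 14.8 CPM in AXL KO normoxia and below 1 CPM in all other libraries. Pdgfrb, a receptor of fibroblasts and pericytes, was at 14.4, 16.5 and 15.9 CPM in AXL WT normoxia and 9.89, 14.5 and 17.4 CPM in AXL WT hypoxia. In AXL KO, Pdgfrb stood at 116, 122 and 128 CPM in normoxia and 8.17, 9.74 and 9.9 CPM in hypoxia, so it fell in AXL KO from a high normoxic level (−3.55 ± 0.25, adjusted p = 4.84e-06), and the part of these markers in other results was not tested.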

How the data were processed

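RNA-seq counts per gene were deposited for 12 libraries of mouse MMTV-NIC cells. Per the submitters' processing notes and the file headers, the authors used FastQC 0.11.5 for read quality and STAR 2.5.1b with GRCm38 for alignment, and counted fragments per Ensembl 93 gene with featureCounts (1.4.6 in the notes, 1.6.0 in the headers), reverse stranded, with both ends mapped and without multimapping reads. The deposited counts are not normalized. Groups were taken from the titles, because the genotype tag of 6 samples goes against the title. Reads that map to several places are missing from these counts. Whether this lowers the values of ribosomal protein, chemokine and class I genes was not tested.

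Counts were fitted with edgeR 4.0.16 in R 4.3.3 (filterByExpr, TMM, robust quasi-likelihood, 1 mean per group, all 12 libraries). This tested 16767 genes and left out 37465, and p-values were adjusted by Benjamini-Hochberg over all tested genes, with 0.05 as the threshold. Every adjusted p in the text is of that test unless another tool is named. CPM values use TMM-scaled library sizes, and log2 CPM for single libraries has a prior count of 2. With 45297267 to 58775422 counts per library and 8 residual degrees of freedom, spread between libraries limits the precision. The script was tested on simulated data with the same spread in all 4 groups. That test does not show how the calls behave with the uneven AXL WT hypoxia group.

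Named genes were protein-coding, called also by limma-voom (limma 3.58.1) with a weight per group, with responses that do not overlap, a mean of 5 CPM in the higher oxygen group of each genotype and 10 counts over each group. Of these the 10 most positive and 10 most negative were named, up to 3 per class of response, and, under looser conditions (the call, 5 CPM in the highest group, 10 counts in every group), up to 3 per list by smallest p, and Axl. The 37 gene lists and the members were chosen with earlier results of these data known. Sequences are from the RefSeq promoter table (GRCm38.p6), where 10455 of 13426 protein-coding genes matched. Alternatives were other scalings and filters, DESeq2 1.42.0, limma-voom, a replicate block, a minimum fold and left-out libraries. No pairing of libraries by replicate number was seen, which does not exclude one. 1 gene that the naming rule gave is not reported here.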

Additional observations from a re-analysis of the deposited data

Results flagged for a closer look

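The interaction is itself a tested difference between the responses of the genotypes, and 4830 genes passed it by edgeR. Of the genes with called responses in opposite directions, the 3 with the most positive log2 interaction under the naming conditions were Fam19a5 (6.30), Uhrf1 (3.94) and Ticrr (3.76), and the 3 with the most negative were Gper1 (−10.48), B4galt4 (−7.66) and Cxcl5 (−7.65). Fam19a5, Uhrf1 and Ticrr fell in AXL WT and rose in AXL KO, and the other 3 did the reverse. Each of the 6 kept its direction and its call in all 24 alternatives. The naming conditions already required the call in limma-voom with a weight per group, which is among these alternatives. The genes were also chosen by size in the same libraries, so this is no independent support.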

How the results depend on the processing

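The 12 hypoxia and normoxia libraries gave 4830 interaction calls, between 3933 and 5664 under other scalings, filters and tools. A minimum fold of 2 gave 933 calls in the interaction, 2969 in AXL KO and 3432 in AXL WT. Leaving out each library in turn gave 3582 to 8417 interaction calls, with 8417 without AXL WT hypoxia replicate 1, 8288 to 11499 for AXL KO and 9013 to 11720 for AXL WT. With only AXL WT hypoxia replicate 3 or replicate 2 kept there were 8759 and 9792 calls, with only replicate 1 kept 6655, and the lone library is then assumed to vary like the other groups. Fits of the 6 libraries of each genotype gave 11786 calls for AXL KO and 7600 for AXL WT, and limma-voom weighted by group 12340 and 7607. In the interaction the replicate block gave 4521 calls. Same-numbered libraries had correlations of −0.065 to 0.14, with 2 of 18 over 0.1, and differently numbered ones −0.26 to 0.22. Of 12 libraries 5 correlated best with their own number. No pairing was seen, but deviations within groups of 3 libraries cannot exclude one. Of 3048 values of the 127 named genes under the alternatives, 2937 stayed on their side of the threshold, 110 lost the call, 1 gained it and 0 changed direction. Apart from Axl these genes were chosen by their calls in the same libraries, so these counts are no independent support. A minimum fold of 2 ended the call of 45 named genes.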

Other observations

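Targets of p53 were 7 higher and 6 lower of 25 (52% called, against 28.8% of all genes). Perp, a p53 target and desmosomal membrane protein, was at 108, 116 and 122 CPM in AXL WT normoxia and 115, 86.6 and 74.6 CPM in AXL WT hypoxia. In AXL KO, Perp stood at 359, 409 and 467 CPM in normoxia and 1175, 1219.5 and 1223 CPM in hypoxia. The KO hypoxia libraries stood above all others, and only the KO response was called (1.88 ± 0.21, adjusted p = 7.74e-05 by edgeR for the difference). Plk2, a kinase induced by p53, was at 29.8, 26.3 and 30.8 CPM in AXL WT normoxia and 64.4, 133 and 55.5 CPM in AXL WT hypoxia. In AXL KO, Plk2 stood at 85.7, 76 and 75.8 CPM in normoxia and 19.4, 21.3 and 21.1 CPM in hypoxia. Plk2 rose in AXL WT and fell in AXL KO (−3.48 ± 0.37, adjusted p = 6.05e-05), and Btg2, an antiproliferative gene, did the same (−1.59 ± 0.19, adjusted p = 0.000118). The number of higher p53 targets ran from 4 to 10 when each library was left out.

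Lysosome and autophagy genes were 12 higher and 3 lower of 37 (40.5% called, against 28.8% of all genes). From 3 to 17 were higher when each library was left out. Ctsl, cathepsin L, was at 638, 665 and 664 CPM in AXL WT normoxia and 698, 677 and 518 CPM in AXL WT hypoxia. In AXL KO, Ctsl stood at 716, 723 and 803 CPM in normoxia and 1270.2, 1308 and 1399 CPM in hypoxia. The KO hypoxia libraries were the highest and the KO normoxia libraries came next, above all WT libraries (0.88 ± 0.16, adjusted p = 0.00176). Ctsh, cathepsin H, rose in both and more in AXL WT (−1.61 ± 0.15, adjusted p = 2.95e-05). Among genes of MHC class I presentation, 1 higher and 4 lower of 20 (25% called, against 28.8% of all genes, and 5 higher and 5 lower without AXL WT hypoxia replicate 1), H2-T23 was at 4.93, 4.8 and 4.45 CPM in AXL WT normoxia and 18.7, 29.4 and 23.7 CPM in AXL WT hypoxia. In AXL KO, H2-T23 stood at 41.2, 46.5 and 53.4 CPM in normoxia and 66.5, 73.6 and 72.5 CPM in hypoxia. It rose in both and relatively more in AXL WT (−1.75 ± 0.22, adjusted p = 0.000195), while the gain in CPM was larger in AXL KO. Class I genes are similar in sequence, and a loss of reads between them was not tested. Targets of YAP were 5 higher and 5 lower of 26 (38.5% called, against 28.8% of all genes), with 2 to 9 higher when each library was left out. Ankrd1, a muscle ankyrin repeat protein, was at 113, 108 and 138 CPM in AXL WT normoxia and 61.7, 16.5 and 37.1 CPM in AXL WT hypoxia. In AXL KO, Ankrd1 stood at 25.1, 28.8 and 30.8 CPM in normoxia and 44.2, 62 and 60.8 CPM in hypoxia. Ankrd1 rose in AXL KO and fell in AXL WT (2.61 ± 0.49, adjusted p = 0.0024). Heat shock proteins were 3 higher and 5 lower of 23 (34.8% called, against 28.8% of all genes), with 10 lower without AXL WT hypoxia replicate 1. Replication-dependent histones were 0 higher and 1 lower of 12 (8.33% called, against 28.8% of all genes).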
